A study of Homo sapiens with 6 samples.

Results

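Keratins are the intermediate filament proteins of epithelial cells. A keratin filament is built from pairs of one acidic type I chain and one basic type II chain, so epithelial cells make both types. KRT8 with KRT18 is the pair of simple epithelia such as the pancreatic duct, where KRT19 and KRT7 are commonly added, while other members mark stratified epithelia, stress and wounding, or hair. Rows of the count table whose gene name is KRT, a number and at most one of the letters A to C were taken as the keratin genes, which leaves out keratin-associated proteins and pseudogenes. This gave 36 of the 32078 rows with a gene name. Of these, 17 had 0 counts in every library, 9 had a few counts but did not pass the count filter, and 10 passed it and were tested. Of 55 human keratin names listed for this work, 19 had no row in the table and were not analysed here.

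The libraries are poly(A) RNA of PANC-1, an established human pancreatic carcinoma cell line. There were 3 libraries with the treatment label none (control-labelled) and 3 labelled as given extracellular vesicles (EVs) from cancer-associated fibroblasts, the activated fibroblasts of tumour stroma (EV-labelled). The protocol text mentions vesicle pretreatment for every library, so the groups rest on titles and treatment labels, and the sources used here give neither vesicle dose nor time. The vesicles come from another cell type, and PANC-1 is a single line. No label states that replicates were separate cultures, so p-values cover only how far these libraries differ from one another, possibly for technical reasons. Totals were 21647493 to 27498709 counts, and values below are CPM, the usual unit of counts relative to library size, here after TMM scaling. A count of 0 allows up to 3 counts, or 0.110 to 0.138 CPM depending on the library, for counting error only.

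Checked against markers, the libraries held KRT8, KRT18, CLDN4 (201 ± 8.72 CPM in control-labelled libraries, SD, n = 3) and SOX9 (291 ± 10.3 CPM), but EPCAM and CDH1, which define most epithelia, had 0 counts in all 6. Of 11 epithelial and ductal markers with a row, 4 had 0 counts throughout. The list summed to 505 to 520.2 CPM in the control-labelled and 332 to 354 CPM in the EV-labelled libraries, and 3 of its 4 tested members, MUC1, CLDN4 and SOX9, were lower there, beside 20.7% of all tested genes. The part of this difference in the keratin results was not tested. A low value in this table does not by itself show that a transcript is absent. Of 40 subunit genes of complexes that every cell uses, 2 were under 1 CPM on average, the proteasome subunit gene PSMA2 (0.196 CPM) and the prefoldin subunit gene PFDN5 (0.896 CPM). This list was chosen after the values were seen.

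The keratin mRNA of these libraries was dominated by the simple epithelial pair KRT8 and KRT18. The control-labelled libraries held KRT8 at 2961, 3288 and 2938 CPM, and KRT18, its type I partner, at 1220, 1358 and 1233 CPM. Together they made up 87.3% ± 0.385 of all keratin CPM in these libraries (SD, n = 3). KRT19, a short type I keratin of ductal epithelium, added 7.87% ± 0.106. All keratin rows together took 0.496% ± 0.0297 of the scaled counts.

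The less abundant members were mostly keratins known from stratified epithelia. KRT80, a type II keratin of differentiating epithelia, was at 160.1 ± 7.99 CPM (control-labelled mean). KRT15, a basal-layer type I keratin, was at 47.0 ± 1.98 CPM, KRT10, the suprabasal epidermal type I keratin, at 25.0 ± 2.52 CPM, and KRT13, a mucosal type I keratin, at 6.19 ± 0.346 CPM. The hair keratins KRT86, KRT81 and KRT32 passed the filter with 2 to 25, 5 to 22 and 0 to 17 counts per library, under 1 CPM on average. No other keratin with a row passed.

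Per kilobase of coding sequence, which allows levels of different genes to be compared, the order in the control-labelled libraries was KRT8 (2114 ± 135), KRT18 (985 ± 59.2), KRT19 (326 ± 20.9), KRT80 (118 ± 5.89), KRT15 (34.3 ± 1.45), KRT10 (14.2 ± 1.44) and KRT13 (4.51 ± 0.252 CPM per kb, SD, n = 3). No neighbours in this order overlapped in any library of that group. In the EV-labelled libraries the order was the same, with KRT15 at 17.6 ± 1.93 and KRT10 at 13.4 ± 1.61 CPM per kb closer than before but still without overlap. Divided by whole transcript length, KRT10 (11.7 CPM per kb) stood above KRT15 (8.97 CPM per kb) in the control-labelled mean, because the reference transcript of KRT15 is 5237 bases long and that of KRT10 2124, so the order of these genes depends on the length used.

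**Figure D1:**
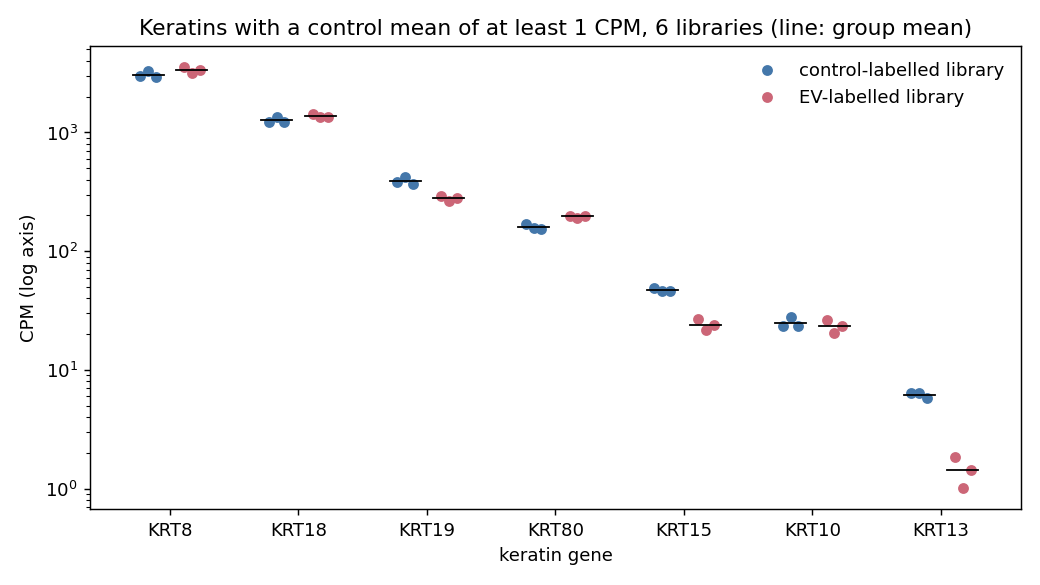
CPM on a log axis (y) of the 7 keratins with a control-labelled mean of at least 1 CPM (x), each point a library and each line a group mean. KRT8 and KRT18 lie far above the rest, and the points of the groups are apart for KRT19, KRT80, KRT15 and KRT13.

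The stress and wound keratins KRT6A, KRT6B and KRT17, and the intestinal-type KRT20, had 0 counts in all 6 libraries, as did KRT23. KRT16, the remaining stress keratin with a row, had 7, 14 and 3 counts in the control-labelled and 6, 2 and 3 in the EV-labelled libraries, and these ranges overlapped. KRT7, the type II keratin often used with KRT19 to mark ductal tumours, had 5, 10 and 7 counts against 1, 2 and 3. Its groups did not overlap, but it failed the filter, and without a filter edgeR did not call it (log2 fold change -1.71 ± 0.74, SE; adjusted p = 0.0856). In the authors' deposited table KRT7 has a q of 0.0425. KRT14, the usual partner of the basal keratin KRT5, had 2 counts in 1 EV-labelled library and 0 elsewhere. KRT5 itself had no row, so its level is not known here. The others with any count were KRT83, KRT36, KRT222, KRT78, KRT75 and KRT4, none above 2 counts in any library.

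Parts of the type I keratins resemble one another, which could matter for how reads were divided among them. The 90 coding bases below are where KRT19 is most like KRT15 and KRT13, the other type I keratins that passed the test between the groups, and KRT18 and KRT10 are shown for contrast. Sequences are read 5′ to 3′ from GENCODE 29 transcripts (GRCh38, coding strand), and capitals mark bases that differ from KRT19.
KRT19: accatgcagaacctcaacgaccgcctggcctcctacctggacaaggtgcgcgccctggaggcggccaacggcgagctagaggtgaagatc
KRT15: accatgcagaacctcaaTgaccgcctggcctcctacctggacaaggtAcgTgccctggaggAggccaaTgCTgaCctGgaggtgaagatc
KRT13: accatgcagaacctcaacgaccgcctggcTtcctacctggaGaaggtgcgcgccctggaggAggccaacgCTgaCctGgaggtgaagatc
KRT18: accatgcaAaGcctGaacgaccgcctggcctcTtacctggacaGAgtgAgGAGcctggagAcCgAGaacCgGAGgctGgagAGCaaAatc
KRT10: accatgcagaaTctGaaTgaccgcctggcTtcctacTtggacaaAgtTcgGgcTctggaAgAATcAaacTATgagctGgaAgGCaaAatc

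In this window KRT13 differs from KRT19 at 7 bases, KRT15 at 9, KRT10 at 22 and KRT18 at 23. The longest run of identical coding bases was 31 between KRT19 and KRT13, 29 between KRT19 and KRT15 and 66 between KRT15 and KRT13. Of all 50-base windows of each reference transcript, 1.79% in KRT19 and 0.328% in KRT15 occur in a transcript of another gene. In KRT13 the share was 18.4%, mostly with AC019349.1, which lies on the opposite strand. It was much higher in KRT8 (36.9%) and KRT18 (47.6%), which have many processed pseudogenes and overlap each other on opposite strands, and in the hair keratins KRT81 (44.6%) and KRT86 (40.5%), which share sequence with each other. Levels of those 4 genes are uncertain because of this shared sequence. The sources used here do not say if reads were counted by strand, so levels of KRT8, KRT18, KRT13, KRT86 and KRT10, whose exons overlap a gene on the opposite strand, could include its reads.

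Between the groups, neither gene of the abundant pair passed the test, while 3 type I keratins fell. KRT13, KRT15 and KRT19 were lower in the EV-labelled libraries by 4.24-, 1.95- and 1.40-fold, and the type II gene KRT80 was 1.23-fold higher. KRT86, a hair keratin with few counts, was lower too. So 5 of 10 tested keratins were called at an adjusted p under 0.05 in edgeR's quasi-likelihood test, where 40.9% of all 14670 tested genes were called. Of the 10, 4 were lower, beside 20.7% of all tested genes, and 1 was higher, beside 20.2%. The median log2 fold change (EV-labelled over control-labelled) was -0.60 over the 10 keratins and -0.01 over all tested genes. That median counts the 3 hair keratins under 1 CPM, KRT86, KRT32 and KRT81 (-1.55, -1.20 and -0.72), and does not describe a fall of the whole family. Of the other 7, KRT8, KRT18 and KRT80 were positive (0.14, 0.11 and 0.30), KRT10 was near 0 (-0.09), and KRT13, KRT15 and KRT19 were negative. The groups did not overlap for 5 of the 10, and for 50.6% of all tested genes, so the keratins as a group were called about as often as other genes. In bulk RNA, fewer cells with a transcript and less of it per cell cannot be told apart.

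KRT13 showed the largest difference among the tested keratins. Its control-labelled values were 6.38, 6.40 and 5.79 CPM and its EV-labelled values 1.85, 1.01 and 1.45 CPM. Every EV-labelled library lay far below the lowest control-labelled one (log2 fold change -2.08 ± 0.18, SE; adjusted p = 4.67e-08). These values rest on 149 to 175 and 22 to 50 counts per library, and the part of opposite-strand reads in them was not tested.

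KRT15 was at 49.3, 45.8 and 45.9 CPM against 26.8, 21.5 and 23.8 CPM. The lowest control-labelled value lay well above the highest EV-labelled one (-0.96 ± 0.08, adjusted p = 2.84e-08). KRT19 was at 384, 419 and 370 CPM against 294, 264 and 280 CPM, again with no overlap, and with a smaller difference (-0.48 ± 0.06, adjusted p = 5.78e-06).

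The fall of these 3 genes was not in proportion. For each KRT19 count there were 0.121 ± 0.00993 KRT15 counts in the control-labelled and 0.0858 ± 0.00497 in the EV-labelled libraries (SD, n = 3 each), and the ratio of KRT13 to KRT19 went from 0.0159 ± 0.000704 to 0.00509 ± 0.00124. The libraries of the groups did not overlap in either ratio. Among these 3, the scarcer the gene, the larger was its fold change.

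KRT80 was the called keratin that was higher, at 169, 158 and 153 CPM in the control-labelled and 200, 191 and 200 CPM in the EV-labelled libraries. All EV-labelled values were above all control-labelled ones, by a small amount (0.30 ± 0.06, adjusted p = 0.000426). Relative to KRT8 its level overlapped between the groups, with 0.0570, 0.0480 and 0.0522 KRT80 counts per KRT8 count against 0.0561, 0.0598 and 0.0590.

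KRT8 was at 3561, 3199 and 3387 CPM in the EV-labelled libraries, and the second of these lay below the highest control-labelled value of 3288 CPM. Its difference did not pass (0.14 ± 0.06, adjusted p = 0.0687), but it passed in 5 of 15 alternatives, as given in the closing section. KRT18 was at 1438, 1349 and 1340 CPM and did not pass either (0.11 ± 0.06, adjusted p = 0.132). KRT10, with 26.3, 20.6 and 23.4 CPM against 23.4, 27.9 and 23.6 CPM, overlapped throughout (-0.09 ± 0.10, adjusted p = 0.482).

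**Figure D2:**
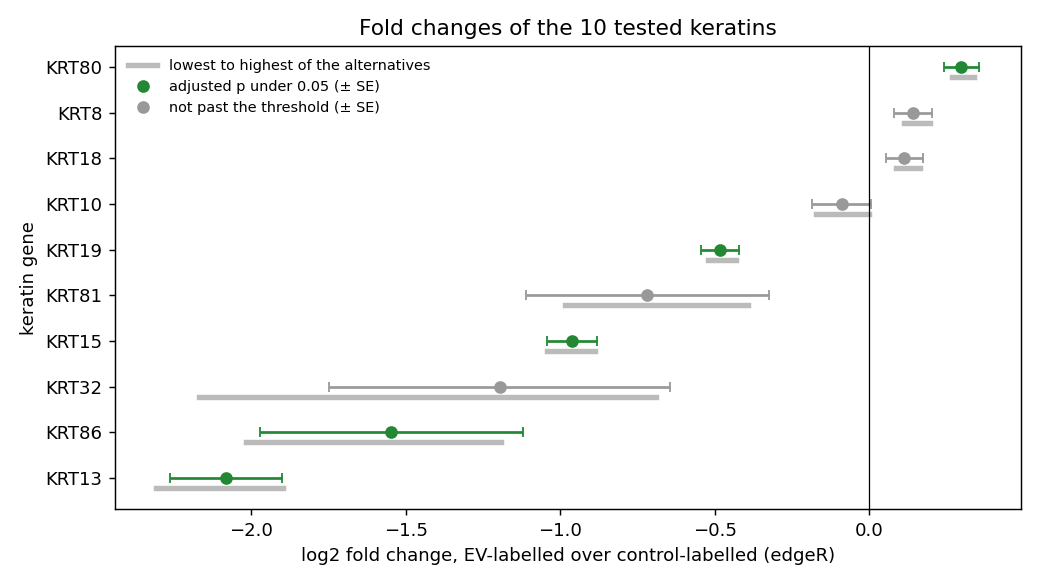
Log2 fold change of EV-labelled over control-labelled libraries (x, with SE) for the 10 tested keratins (y), with the range over the alternative settings as a grey bar. KRT13, KRT86, KRT15 and KRT19 are lower and KRT80 higher, while KRT8, KRT18, KRT10, KRT81 and KRT32 did not pass.

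The hair keratins were near the limit of detection. KRT86 had 22, 25 and 15 counts in the control-labelled and 11, 2 and 7 in the EV-labelled libraries, without overlap (-1.55 ± 0.42, adjusted p = 0.00667). KRT81, with which it shares sequence, was at 11, 22 and 18 against 12, 12 and 5 counts and did not pass (-0.72 ± 0.39, adjusted p = 0.153). Summed over both genes, which a division of shared reads between them cannot change, there were 33, 47 and 33 against 23, 14 and 12 counts, and the groups did not overlap. KRT32 had 11, 17 and 11 against 11, 0 and 5 counts (-1.20 ± 0.55, adjusted p = 0.0908).

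The make-up of the keratin mRNA differed more clearly than its amount. The keratin total was 4815, 5307 and 4772 CPM in the control-labelled and 5548, 5048 and 5257 CPM in the EV-labelled libraries, and these ranges overlapped. KRT8 and KRT18 together held 86.8%, 87.6% and 87.4% of it against 90.1%, 90.1% and 89.9%, without overlap. KRT19 held 7.96%, 7.89% and 7.76% against 5.29%, 5.24% and 5.33%. The ratio of KRT8 to KRT18 was 2.41 ± 0.0248 against 2.46 ± 0.0798 and overlapped between the groups. For each KRT18 count there were 0.308 ± 0.00718 KRT19 counts in the control-labelled and 0.203 ± 0.00669 in the EV-labelled libraries.

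Type I keratin mRNA was scarcer than type II keratin mRNA in every library, and protein chains were not measured. Most of the type I sum was KRT18 and most of the type II sum KRT8, whose levels are uncertain because of shared sequence. Per kilobase of coding sequence, and over the tested keratins, the ratio of type I to type II was 0.608, 0.610 and 0.615 in the control-labelled libraries. It was 0.536, 0.551 and 0.525 in the EV-labelled libraries, all below the control-labelled values. The type II sum was 2233 ± 135 against 2480 ± 128 CPM per kb and the type I sum 1364 ± 80.0 against 1331 ± 56.0 CPM per kb (SD, n = 3 each). The type I sums overlapped between the groups, and the type II sums overlapped as well, so the ratio separated the groups although neither sum did. The ratio of KRT18 to KRT8 alone, on the same scale, overlapped (0.463, 0.464 and 0.472 against 0.454, 0.474 and 0.444). The type I sum includes KRT19, already called lower (326 ± 20.9 against 233 ± 12.2 CPM per kb), so the ratio is not a separate result.

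**Figure D3:**
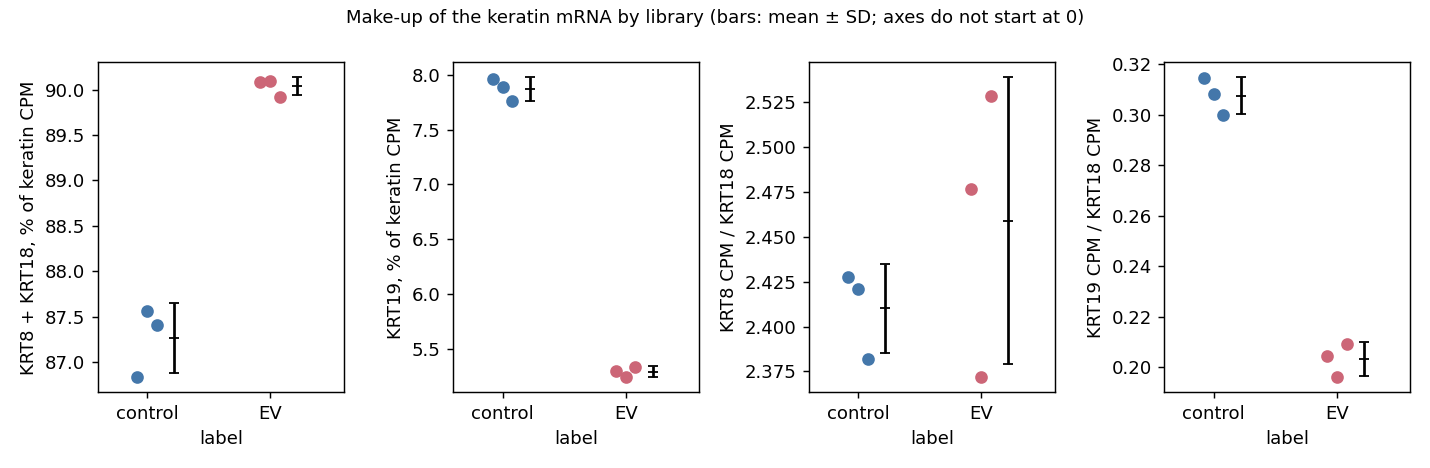
Share of keratin CPM held by KRT8 with KRT18 and by KRT19, and the ratios of KRT8 and of KRT19 to KRT18 (y, one panel each, axes not from 0), by label (x), with points for libraries and bars for mean ± SD. The groups are apart in both shares and in the ratio of KRT19 to KRT18 (0.308 against 0.203), and overlap in the ratio of KRT8 to KRT18.

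Human type I keratins lie together on chromosome 17 and type II keratins on chromosome 12, where KRT18 is the one type I gene, next to KRT8. In the gene order of GENCODE 29 (GRCh38, used for order and not for coordinates), KRT13, KRT15 and KRT19 are consecutive keratin genes on the same strand of chromosome 17, with the microRNA gene MIR6510 inside KRT15. All 3 were lower in the EV-labelled libraries. On their other side the nearest tested gene, KRT32, was not called (-1.20 ± 0.55, adjusted p = 0.0908). It had only 0 to 17 counts per library, too few to show whether its level differed. KRT10, at the other end of the cluster, was not called either (-0.09 ± 0.10, adjusted p = 0.482). Beyond KRT19 the next tested gene, EIF1, a translation initiation factor gene, was also lower (645 ± 15.1 against 460.4 ± 26.9 CPM, -0.49 ± 0.06, adjusted p = 2.59e-06). HAP1, the tested gene after it, was not called and had the opposite sign (0.31 ± 0.30, adjusted p = 0.443). HAP1 was under 1 CPM on average (0.804 ± 0.255 against 0.982 ± 0.138 CPM), so its sign is uncertain. JUP, which encodes the desmosomal protein plakoglobin and comes next, was lower (-0.29 ± 0.10, adjusted p = 0.0251). The JUP values of the groups overlapped (29.6 to 37.2 against 23.0 to 30.6 CPM). Past JUP, P3H4 was higher (0.50 ± 0.06, adjusted p = 4.95e-06). On chromosome 12 the tested keratins had KRT80 higher, KRT86 lower and KRT81, KRT8 and KRT18 not called. In sign, KRT86 and KRT81 were negative (-1.55 and -0.72), and KRT80, KRT8 and KRT18 were positive (0.30, 0.14 and 0.11). This arrangement was looked at after the values were seen.

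**Figure D4:**
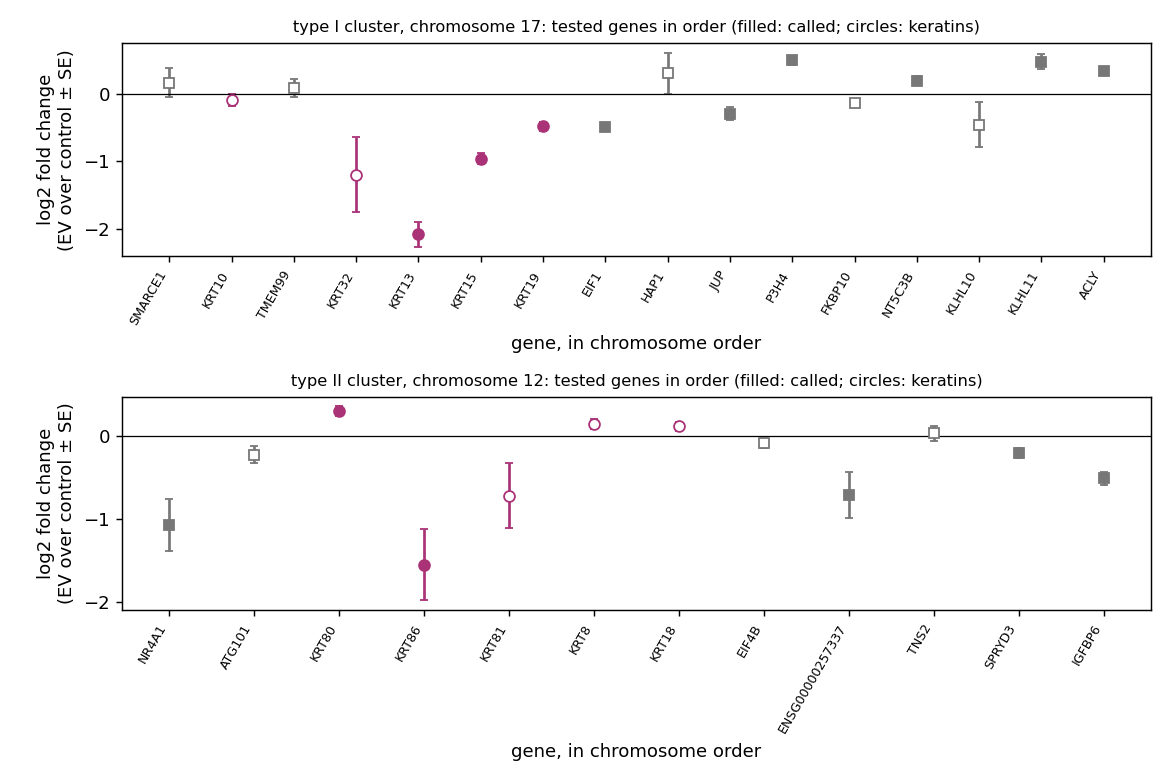
Log2 fold change with SE (y) of the tested genes in and beside each keratin cluster, in chromosome order and not to scale (x), with circles for keratins and filled symbols for called genes. KRT13, KRT15 and KRT19 stand below 0 side by side, from -2.08 to -0.48. Beyond them EIF1 and JUP are lower, while HAP1 between these (0.31) and KRT32 on the other side (-1.20) were not called.

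Pseudogene rows give a view of reads that resemble KRT8 and KRT18. There were 95 keratin pseudogene rows, of which 71 had counts and 8 were tested. They summed to 33.7 ± 1.87 CPM in the control-labelled and 27.7 ± 0.825 CPM in the EV-labelled libraries, against a KRT8 level of 3063 and 3382 CPM. KRT8P12, the most abundant, was lower in the EV-labelled libraries (19.5 ± 1.74 against 13.6 ± 0.929 CPM, -0.53 ± 0.09, adjusted p = 0.000216), opposite in sign to KRT8. KRT8P3 was at 6.92 ± 0.290 against 6.57 ± 0.730 CPM and was not called.

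Keratin filaments reach the cell membrane through plakins and desmosomes, and the basement membrane through hemidesmosomes. Of 15 tested genes of these anchors, from 22 listed, 10 were lower and 0 higher in the EV-labelled libraries, and 5 were not called, beside 20.7% of all tested genes lower and 20.2% higher. Their median log2 fold change was -0.29, beside -0.01 over all tested genes. The hemidesmosome genes ITGB4, the integrin beta 4 subunit (608 ± 10.9 against 317 ± 30.6 CPM, adjusted p = 2.79e-09), and COL17A1, collagen XVII (476 ± 7.30 against 302 ± 19.5 CPM, adjusted p = 7.34e-08), fell, as did MACF1, a plakin that links actin and microtubules (751 ± 64.8 against 539 ± 63.1 CPM). ITGA6, the partner chain of ITGB4 in hemidesmosomes, was not called (40.8 ± 3.75 against 39.4 ± 2.60 CPM, adjusted p = 0.646). PLEC, which encodes the cytolinker plectin, fell by 0.55 on the log2 scale (960 ± 111 against 657 ± 72.9 CPM). The desmosomal genes PERP (-0.57 ± 0.06), DSP, which encodes desmoplakin (-0.30 ± 0.08), and DSG2 (-0.25 ± 0.08) fell as well. The plakophilin genes PKP2, PKP3 and PKP4 were not called, with log2 fold changes of 0.03, 0.06 and 0.05. The stratified desmosomal cadherins DSG1, DSC1 and DSC3 had 0 counts in all libraries.

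The other intermediate filament genes went both ways. VIM, the mesenchymal filament gene, was at 2496 ± 51.0 CPM in the control-labelled libraries, close to the KRT8 level of 3063 ± 196 CPM on a scale not corrected for length, and fell by 0.37 on the log2 scale to 1928 ± 57.7 CPM (adjusted p = 2.54e-05). Of the nuclear lamins, LMNA fell (-0.34 ± 0.06) while LMNB1 (0.49 ± 0.06) and LMNB2 (0.22 ± 0.06) rose. SYNM, which encodes synemin, rose from 9.82 ± 1.31 to 17.2 ± 1.42 CPM (0.81 ± 0.11, adjusted p = 9.09e-06). In all, 3 of 7 tested genes rose and 2 fell, beside 20.2% and 20.7% of all tested genes.

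**Figure D5:**
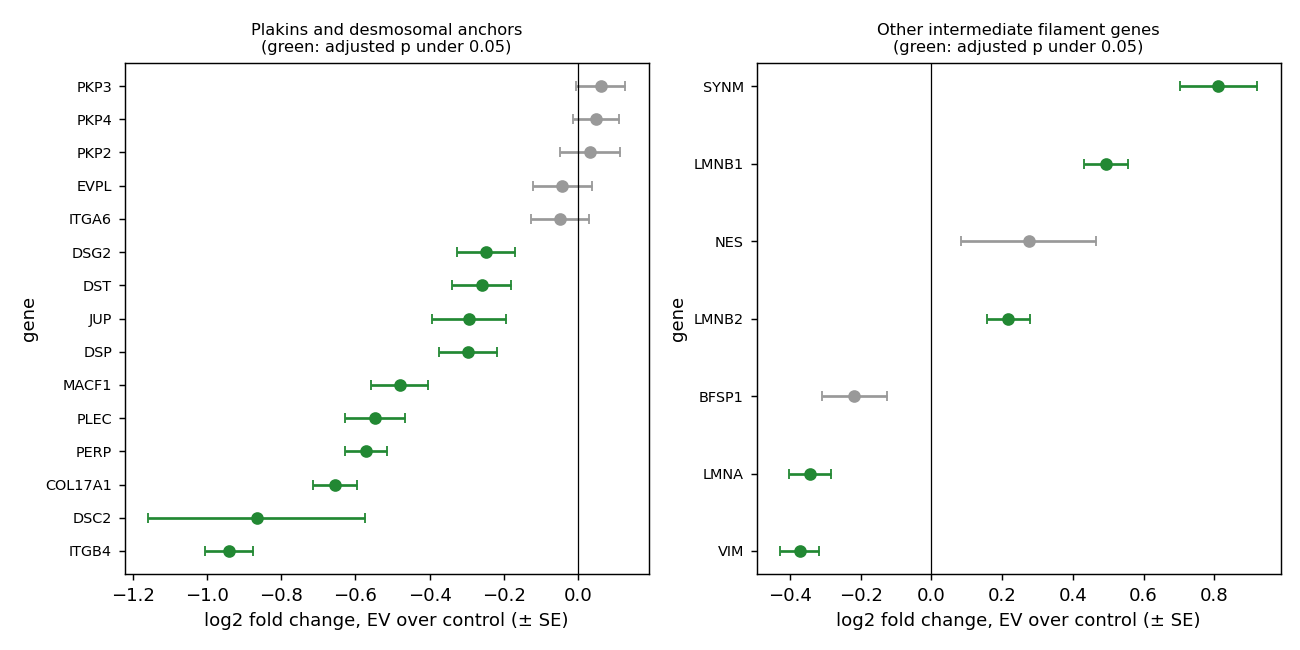
Log2 fold change with SE (x) of the tested plakin and desmosomal anchor genes (left) and other intermediate filament genes (right), with called genes in green. All 10 called anchor genes are lower, while the called filament genes lie on both sides of 0.

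Proteins that bind or process keratins showed no common direction, with 4 higher, 5 lower and 8 not called of 17 tested, beside 40.9% called among all tested genes. PNN, the keratin-associated pinin, rose (0.43 ± 0.06). TCHP, the keratin-binding trichoplein (-0.34 ± 0.07), FAM83H, which recruits a kinase to keratin filaments (-0.27 ± 0.07), and SFN, the epithelial 14-3-3 sigma that binds KRT17 and KRT18 (-0.56 ± 0.15), fell. HSPB1, a small heat shock protein that associates with keratins, was at 992 ± 74.6 against 1021 ± 5.04 CPM and was not called.

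Of the transcription factors known to act on keratin genes, 9 of 15 tested were lower and 1, TFAP2A (0.21 ± 0.07), was higher, beside 20.7% of all tested genes lower and 20.2% higher. TP63, a regulator of basal keratins, was at 167 ± 8.14 against 76.0 ± 5.76 CPM (-1.14 ± 0.07, adjusted p = 1.81e-10), and KLF4, a factor of epithelial differentiation, at 68.7 ± 5.02 against 35.3 ± 0.0744 CPM (-0.96 ± 0.07, adjusted p = 3.24e-09). JUN, FOSL1, ETS1 and the epithelial ETS factor EHF fell by 0.82, 0.68, 0.61 and 0.50 on the log2 scale. The remaining lower factors were JUNB (-0.63 ± 0.11), ZEB1 (-0.46 ± 0.07) and NFE2L2 (-0.33 ± 0.07). SP1, a general activator of keratin promoters, was at 100.4 ± 11.7 against 92.2 ± 3.50 CPM and was not called. The grainyhead factor genes GRHL2 and GRHL3 and OVOL2 had 0 counts in all libraries. Whether any of these factors acts on the keratin levels was not tested.

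Markers of other cells were low or mixed. Of 11 fibroblast markers with a row, DCN, LUM, POSTN and THY1 had 0 counts in all libraries, and the list summed to 141 to 167 CPM in the control-labelled and 221 to 244 CPM in the EV-labelled libraries. Of 4 tested, 1 was higher, 1 lower and 2 not called. Most of that sum was COL1A2, which rose from 114 ± 12.6 to 186 ± 9.64 CPM, and ACTA2, which encodes smooth muscle actin, fell from 5.23 ± 0.0418 to 2.79 ± 0.676 CPM (-0.91 ± 0.17, adjusted p = 0.000233). FBLN1 and COL3A1 were not called, and COL1A1, which was not tested, had a mean of 0.0652 against 0.111 CPM. The part of fibroblast RNA in the keratin differences was not tested. PTPRC and HBB, which mark blood cells, had 0 counts throughout. The 6 blood markers with a row summed to 3.45 to 4.94 CPM in the control-labelled and 2.52 to 3.07 CPM in the EV-labelled libraries. Most of that sum was CD8A, the only member tested. It was lower in the EV-labelled libraries (3.91 ± 0.687 against 2.52 ± 0.118 CPM, -0.63 ± 0.17, adjusted p = 0.00611), beside 20.7% of all tested genes.

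The authors' deposited table lists 17 keratins and takes its ratios with the control group on top, so a gene lower in the EV-labelled libraries has a positive sign. It gives KRT13 2.06 and KRT80 -0.32 as log2 values in the authors' deposited table, which rests on the same libraries and is no independent support. The authors' state label there is Up for KRT13, KRT86, KRT7 and KRT32. It is None for the other listed keratins, among them KRT15 (0.95), KRT19 (0.47) and KRT80. The authors' q-values are nevertheless low for these, at 6.49e-25 for KRT15, 7.34e-10 for KRT19 and 9.18e-06 for KRT80. KRT32, labelled Up, has a q of 0.0799, so the label does not follow q alone.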

How the data were processed

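Poly(A) RNA of 6 libraries was sequenced, 3 in each group. The authors deposited raw counts per gene, and per the submitters' processing notes TopHat, RSEM and the hg19 build were used, with no versions or roles. Counts were read through the column names, which are the samples' descriptions. Of 32453 rows, 375 had only an assembly number (0.0990% to 0.134% of a library) and were left out. The authors also deposited a comparison with mean log2 abundances, log2 fold changes, p-values and q-values.

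The whole table was fitted with edgeR 4.0.16 in R 4.3.3 (TMM factors, filterByExpr, glmQLFit and glmQLFTest), with Benjamini-Hochberg adjustment over all 14670 tested genes and a threshold of 0.05. CPM used the scaled library sizes. An SE was taken as the size of the log2 fold change over the root of its F statistic. Adjusted p-values in the text are edgeR's from this fit where no other tool is named. Tested on simulated counts for those 14670 genes, the fit called 24 of 49 genes changed 1.25-fold and 39 of 49 changed 1.5-fold. It called 42 of 48 changed 2-fold, 48 of 48 changed 4-fold and 13 of 14292 unchanged ones. Only 200 genes were set to change in the simulation, while 40.9% of tested genes were called in the data. The simulated rates therefore need not hold for the data.

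All keratin rows were accounted for. Keratins that passed the filter were named, with each library's value where the mean was at least 1 CPM. From each companion list the called genes were ranked by adjusted p and at most 6 were named, and further members named are examples chosen after their values were seen. Some members that this rule would name are not reported here. The members and lists were chosen with earlier results of these data known. Coding lengths (without the stop codon), gene order, overlaps and sequences came from GENCODE 29. Of the tested keratins, 3 had an entry in the promoter table, and no promoter was printed. Replicates of a group differed by more than sampling noise (chi-square per degree of freedom 4.82 to 9.73). Alternatives were other scalings, other filters, each library left out, limma-voom (limma 3.58.1), a replicate block, DESeq2 1.42.0 and keeping rows without a gene name. A stricter threshold was added after seeing the data.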

Additional observations from a re-analysis of the deposited data

How the results depend on the processing

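KRT13, KRT15, KRT19 and KRT80 kept their direction and their call in all 15 alternatives in which each was tested, with log2 fold changes of -2.31 to -1.90, -1.04 to -0.89, -0.52 to -0.43 and 0.27 to 0.34. KRT86 was called in 14 of 14 (-2.02 to -1.19) and was not tested with a filter of 1 CPM in 3 libraries, which left 3 lower keratins. The number of higher keratins was 1, and became 2 with library totals alone, without a count filter, with DESeq2 and with limma-voom, in each case by adding KRT8 (adjusted p = 0.0414, 0.0211, 0.0486 and 0.045). With one library left out it ranged from 1 to 2, and KRT8 passed without control replicate 2 (adjusted p = 0.0268). KRT8 otherwise ranged up to an adjusted p = 0.21. The number of lower keratins was 4 and with one library left out ranged from 4 to 5, with KRT32 added without EV replicate 1 (-2.17, adjusted p = 0.0232), as it was with limma-voom (-1.98, adjusted p = 0.0225). KRT32 was at an adjusted p of up to 0.294 elsewhere. No tested keratin changed sign under the alternatives. Same-numbered libraries of the groups did not deviate together (correlations -0.04, -0.02 and -0.03), so the numbers were not taken as pairs, and with the replicate block 1 keratin was higher and 4 lower. At an adjusted p under 0.01 the same numbers, 1 and 4, were called. The keratin share of counts was 0.496% (control-labelled) and 0.528% (EV-labelled), and moved by less than its SD with pseudogene rows added or with library totals. The median of all genes moved by less than 0.1 (log2) under every scaling. Depth limits the hair keratins and KRT7 and KRT16, which had at most 25 counts per library.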
